A study of Mus musculus with 26 samples.

Results

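TN3a thymocytes were compared with early thymic progenitors (ETP), the stages that lie on either side of T cell commitment in the mouse thymus. The comparison rests on 5 of the 26 Illumina bead arrays of the series, which were chosen by the stage that their labels give: 3 arrays of TN3a cells and 2 of ETP. The TN3a cells were labelled as negative for CD4, CD8, CD3, CD44 and CD28 and positive for CD25. The ETP were labelled as lineage-negative, positive for CD44 and Kit and negative for CD25. All cells came from C57BL/6 mice with no transgene, deletion or treatment named, and their ages were not given. The series set leukaemias of immature T cells (T-ALL) beside 7 stages of normal thymocytes. 14 thymocyte arrays, those of ETP, TN3a and the later stages TN3b, TN4, ISP and DP, entered one model, and both arrays of the TN2 stage, which lies between ETP and TN3a, were left out because 1 of them was dim. Nothing in the labels says whether the arrays of a stage were separate animals, pools or repeat hybridisations, so each p-value reflects the spread among arrays, which may be technical. The 2 ETP arrays differed in sex-linked probes, given with the slides below, and so were not repeat hybridisations of the same RNA. The labels also do not say which samples were sorted.

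ETP are the most immature cells of the thymus. They arrive from the bone marrow and can still form myeloid and other blood cells when tested outside the thymus. Notch signals from the thymic stroma start the T cell programme, and Bcl11b, a zinc finger transcription factor, closes the other fates. TN3a cells are the committed stage at which the T cell receptor beta chain is rearranged by the Rag recombinase and paired with the pre-T alpha chain, before the burst of division that follows a successful rearrangement.

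On the TN3a arrays 38.8% to 41.8% of the 46237 probes were detected (detection p under 0.01), against 37.6% to 38.6% on the ETP arrays. Pearson correlations of log2 intensity across tested probes were 0.948 to 0.977 among the TN3a arrays and 0.967 between the ETP arrays. Between a TN3a and an ETP array the correlation was 0.892 to 0.920. It was 0.919 to 0.920 for pairs on the same slide and 0.892 to 0.902 for pairs on different slides, with slides read from numbers in the array titles. Values below are log2 intensities after background correction and quantile normalisation, given for TN3a replicates 1, 2 and 3 and then for ETP replicates 1 and 2. On these arrays the lowest level of a detected probe lay between 4.36 and 4.41, so a value near 4.2 is at the floor. A probe was called where limma's test gave an adjusted p under 0.05 over the 20088 probes tested, and differences are log2 TN3a minus ETP with their standard error.

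Of those 20088 probes, 2181 (10.9%) were called, 895 higher in TN3a (4.46%) and 1286 lower (6.4%). The 895 higher probes belonged to 619 named genes and the 1286 lower probes to 965. A difference of at least 2-fold was reached by 1872 called probes (9.32%), and for 1871 of these (9.31%) all TN3a arrays lay on one side of both ETP arrays. Among the higher probes 306 differed at least 4-fold and 69 at least 16-fold, and 213 were detected on neither ETP array. Among the lower probes the counts were 405 and 81, and 308 were detected on no TN3a array. The count depended on both ETP arrays being present. It fell to 1128 without ETP replicate 1 and to 1152 without ETP replicate 2, fits in which the lone ETP array is assumed to vary like the other stages and in which those 308 probes, detected on too few of the remaining arrays, were no longer tested. One probe stands for each gene below, the tested probe with the highest mean over the 14 arrays of the model. The exception is the 12 largest rises and 12 largest falls, which were ranked by each gene's most changed probe, so that Ifitm1 and Napsa are given there by a probe that is not the brightest. With 1 probe per gene by mean level, 4.87% of the 11471 genes tested were called higher in TN3a and 7.79% lower, and the median difference over those genes was -0.01. The counts of each gene list below are to be read beside these shares. Other tested probes of a gene did not always share the call of the probe given. None did for Ets1, Tcf12, Lef1, Hivep3, Spib, Mfng, Lat, Rasgrp1, Il7r, Il6ra, Tgfbr1, Tgfbr2, Thy1, Fas, Serpinf1, Cd6, Foxp3 or Cd8b1.

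**Figure D1:**
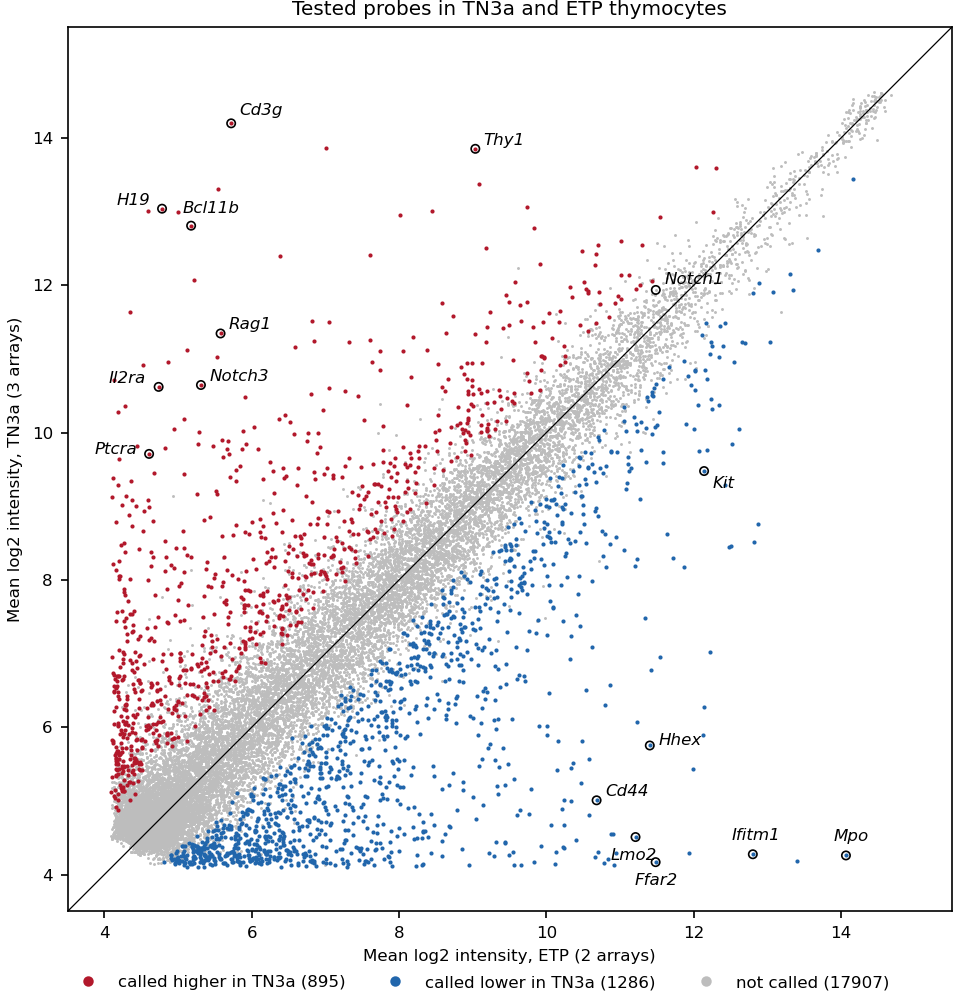
Mean log2 intensity of the 20088 tested probes over the 3 TN3a arrays (vertical axis) and the 2 ETP arrays (horizontal axis), with probes called higher in TN3a in red, called lower in blue and not called in grey. Cd3g, H19 and Bcl11b lie below 5.8 in ETP and above 12.8 in TN3a, Mpo and the most changed Ifitm1 probe lie below 4.3 in TN3a and above 12.8 in ETP, and Notch1 lies near the diagonal.

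Transcripts of Il2ra and Cd44 differed in the direction of the surface labels, and Kit, which only the ETP label names, was higher in ETP. By contrast Cd28 and Cd3e, whose proteins the TN3a label gives as absent, were higher in TN3a. Il2ra, which encodes CD25, the alpha chain of the interleukin-2 receptor, read 10.37, 10.76 and 10.73 on the TN3a arrays and 5.02 and 4.45 on the ETP arrays, where 1 of the 2 detected it. The groups were far apart, and the difference was 5.88 ± 0.27 (SE, adjusted p = 2.94e-08). Cd44, an adhesion receptor for hyaluronan, read 5.08, 5.09 and 4.86 in TN3a against 11.15 and 10.21 in ETP, a difference of -5.67 ± 0.31 (adjusted p = 1.4e-07). Kit, the receptor for stem cell factor, fell less. It stood at 9.46, 9.36 and 9.62 in TN3a against 12.40 and 11.88 in ETP, so that TN3a cells kept a Kit signal well above the floor (difference -2.66 ± 0.30, adjusted p = 6.11e-05). Cd28, a co-stimulatory receptor by whose absence the TN3a cells were labelled, was detected on all 3 TN3a arrays, at 7.04, 6.63 and 6.59, and on neither ETP array, at 4.48 and 4.32. It was at least 4.97-fold higher in TN3a (adjusted p = 2.81e-05), and its mean was higher still at TN3b (8.29) and TN4 (8.82), the stages labelled CD28-positive.

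Cd3e is described with the receptor genes below. Cd8a was detected on none of the 5 arrays and Cd4 on 1 ETP array only. Cd8b1, the beta chain of CD8, was called lower on its brightest probe, at 10.87, 10.99 and 11.22 in TN3a against 12.27 and 12.41 in ETP (difference -1.31 ± 0.30, adjusted p = 0.0117). Its other 2 tested probes were not called and differed by 0.52 and 1.13, and the mean of the 3 probes differed by 0.11, the opposite sign. No direction is given for that gene. Leaving out either ETP array also ended the call of the brightest probe (adjusted p = 0.0714 and 0.11).

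Transcription factors of blood progenitors formed the group with the most falls. Of 22 tested, 13 were called lower in TN3a, 2 higher and 7 were not called, with a median difference of -2.07 against -0.01 over all genes tested. The share called lower was 59.1%, beside 7.79% of all genes tested. Lmo2, a LIM-domain adaptor of stem cell transcription complexes, read 4.20, 4.39 and 4.94 in TN3a against 11.11 and 11.31 in ETP (difference -6.70 ± 0.26, adjusted p = 6.24e-09). Only 1 of the 3 TN3a arrays detected it. Its partners Lyl1 and Tal1, both basic helix-loop-helix factors, followed: Lyl1 read 4.54, 5.02 and 5.10 in TN3a against 10.17 and 10.25 in ETP, and Tal1 read 5.32, 4.16 and 4.41 against 7.66 and 7.49. Hhex, a homeobox factor of progenitors, stood at 5.75, 6.12 and 5.38 in TN3a against 11.50 and 11.31 in ETP (difference -5.65 ± 0.45, adjusted p = 2.74e-06). Meis1, a Hox cofactor of stem cells, was undetected in TN3a on its brightest probe and was at least 29.3-fold lower there (adjusted p = 3.91e-09).

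Factors that drive other blood lineages were in the same group. Spi1, which encodes PU.1, the myeloid and B cell factor, read 4.11, 5.01 and 4.17 in TN3a against 7.21 and 7.29 in ETP, a difference of -2.82 ± 0.25 (adjusted p = 8.39e-06). Bcl11a, a zinc finger relative of Bcl11b needed for B cells, remained above the floor, with 7.55, 7.01 and 7.15 in TN3a against 9.89 and 10.78 in ETP (difference -3.10 ± 0.35, adjusted p = 5.91e-05). Mef2c fell by 3.14 ± 0.34 and Gfi1b, an erythroid and megakaryocyte repressor, fell by 3.36 ± 0.33 (adjusted p = 4.58e-05 and 2.09e-05). Gata2 was at least 5.74-fold lower and undetected in TN3a. Nfe2 differed by -2.68, yet at 10.37, 9.66 and 9.50 in TN3a against 12.53 and 12.51 in ETP it stayed among the brighter probes. The 2 members that rose were Egr1, an immediate-early factor, by 2.96 ± 0.40, and Gfi1, a zinc finger repressor, by 1.52 ± 0.35 (adjusted p = 0.000246 and 0.0138). The Gfi1 call was lost without ETP replicate 1 (adjusted p = 0.15), ETP replicate 2 (0.0517) or TN3a replicate 2 (0.0514). Hoxa9, Hoxa7, Sox4, Id2 and Erg were tested and not called on their brightest probes, and Mycn was detected on none of the 5 arrays. A dimmer Hoxa9 probe was called lower (difference -1.04, adjusted p = 0.00172), averaging 4.15 in TN3a, undetected, and 5.19 in ETP.

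Transcription factors of the T lineage went the other way. Of 16 tested, 9 were called higher in TN3a (56.2%, beside 4.87% of all genes) and 0 lower, with a median difference of 1.72. Ets1, Tcf12, Lef1, Hivep3 and Spib were each called on their brightest probe only. Dimmer probes, not called, differed by -0.03 and 1.01 for Ets1, 1.12 for Lef1 and 0.47 for Hivep3. Bcl11b was among the largest rises, at 12.81 ± 0.27 (SD, n = 3) in TN3a and 5.18 ± 0.01 (SD, n = 2) in ETP on its brightest probe. Its arrays read 13.03, 12.89 and 12.50 in TN3a and 5.19 and 5.17 in ETP, a difference of 7.63 ± 0.25 (adjusted p = 1.28e-09), and its other 3 tested probes differed by 8.41, 5.11 and 3.62, each called. Hivep3, a large zinc finger protein, read 11.01, 10.69 and 11.18 in TN3a against 5.12 and 4.60 in ETP (difference 6.10 ± 0.25, adjusted p = 1.31e-08).

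Ets1 and Ets2, winged-helix factors, rose by 3.32 and 2.75 and were well above the floor in ETP too: Ets1 stood at 12.66, 12.18 and 12.67 in TN3a against 9.34 and 9.02 in ETP. Tcf12, which encodes the E protein HEB, read 8.49, 8.13 and 8.31 in TN3a against 6.47 and 6.06 in ETP, and Id3, an inhibitor of E proteins, rose with it, being detected on all TN3a arrays and no ETP array (at least 3.19-fold, adjusted p = 0.00134). Lef1, a high-mobility-group factor of the Wnt pathway, was at least 4.91-fold higher and read 7.03, 5.78 and 7.29 in TN3a against 4.12 and 4.26 in ETP. Spib, a relative of PU.1, rose by 1.77 (adjusted p = 9.39e-05). Runx1 was called on thin support. Its arrays read 8.64, 8.46 and 9.64 in TN3a against 6.53 and 7.57 in ETP (difference 1.87 ± 0.53, adjusted p = 0.0394), and the call was lost without ETP replicate 1 (0.327), ETP replicate 2 (0.0569) or TN3a replicate 3 (0.132).

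Gata3, which T cells need from the ETP stage on, was not called. It read 10.87, 8.89 and 9.35 in TN3a against 9.10 and 7.95 in ETP, overlapping groups, with a difference of 1.18 ± 0.56 and an adjusted p of 0.254. TN3a replicate 1 and ETP replicate 1 are each the highest of their stage and lay on the same slide. With slide as a fixed block the difference was 1.29 with an adjusted p of 0.00278, and with slide as a random block the adjusted p was 0.0235. Within slide 4 the difference was 1.77 and within slide 6 it was 0.94. Sox13, Tox, Satb1, Ikzf1, Zeb1 and Nfatc3 were also tested and not called. Runx3 was detected on none of the 5 arrays, and Tcf7 has no named probe in the annotation used here.

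**Figure D2:**
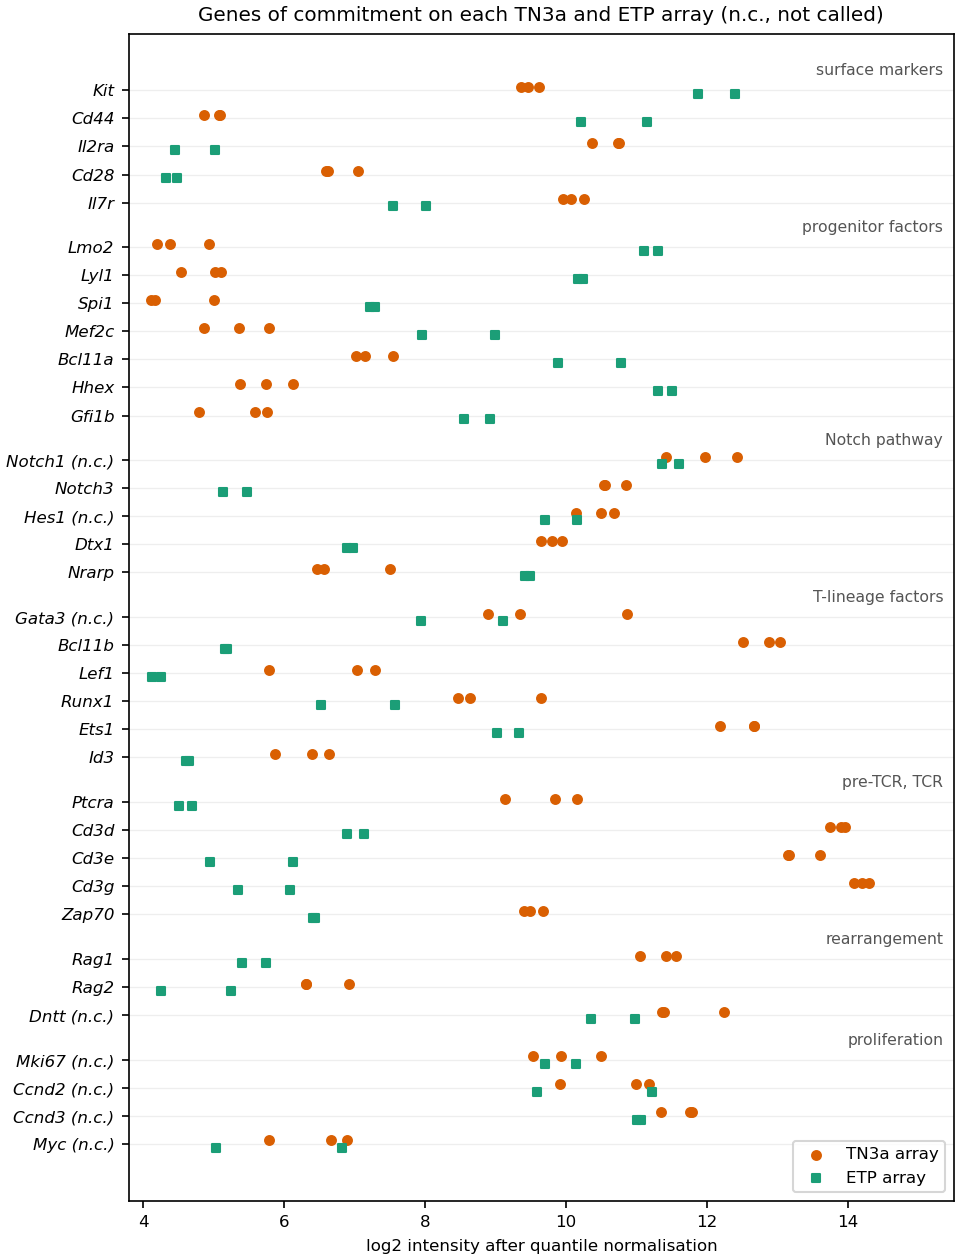
Log2 intensity of 35 genes chosen for their place in commitment, 1 row each, with a circle for each of the 3 TN3a arrays and, just below, a square for each of the 2 ETP arrays. Progenitor factors lie to the left in TN3a and the CD3 genes, Ptcra, Rag1 and Bcl11b to the right, whereas the circles and squares of Notch1, Hes1, Mki67, Ccnd2 and Myc overlap or nearly touch.

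The Notch pathway did not move as one. Of its 18 tested members 4 rose, 3 fell and 11 were not called, with a median difference of -0.15. The receptor Notch1 was bright at both stages, at 12.42, 11.97 and 11.42 in TN3a against 11.60 and 11.37 in ETP (difference 0.45 ± 0.33, adjusted p = 0.502, and 0.0458 with slide as a fixed block). Notch3, a second receptor and itself a Notch target in T cells, read 10.55, 10.54 and 10.85 in TN3a against 5.14 and 5.48 in ETP, a difference of 5.34 ± 0.34 (adjusted p = 4.31e-07). Among Notch targets Dtx1, an E3 ligase, read 9.65, 9.81 and 9.94 in TN3a against 6.89 and 6.97 in ETP, tight groups that lay 2.87 ± 0.30 apart (adjusted p = 3.38e-05). Hes1, a helix-loop-helix repressor, was not called, with 10.67, 10.49 and 10.14 in TN3a against 10.16 and 9.70 in ETP. Nrarp, a feedback inhibitor of Notch, fell: it read 6.47, 6.57 and 7.51 in TN3a against 9.48 and 9.42 in ETP (difference -2.60 ± 0.31, adjusted p = 9.56e-05). Ccnd1, which encodes cyclin D1, read 5.39, 4.63 and 4.97 in TN3a against 10.53 and 10.14 in ETP (difference -5.34 ± 0.39, adjusted p = 1.34e-06), and Mfng, a Fringe sugar transferase, fell by 1.47. Myc was not called, at 6.90, 5.78 and 6.66 in TN3a against 6.82 and 5.03 in ETP.

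The pre-TCR and TCR signalling genes held the largest rises. Of 19 tested, 12 were called higher in TN3a (63.2%), 1 lower and 6 were not called, with a median difference of 2.85. The 3 CD3 chains that carry the receptor's signal were among the brightest probes of TN3a. Cd3g read 14.20, 14.09 and 14.30 in TN3a against 6.09 and 5.35 in ETP, the largest rise on a gene's brightest probe (difference 8.48 ± 0.25, adjusted p = 8.2e-10). Cd3e differed by 7.77 ± 0.34, with 13.60, 13.16 and 13.17 in TN3a against 6.12 and 4.95 in ETP. Cd3d, at 13.95, 13.90 and 13.74 in TN3a against 7.13 and 6.89 in ETP, differed by 6.85 ± 0.19. These transcripts were present in TN3a cells that were labelled CD3-negative, a label that refers to the cell surface. Ptcra, the pre-T alpha chain, was detected on all TN3a arrays, at 9.13, 10.15 and 9.85, and on neither ETP array, at 4.51 and 4.70, so that it was at least 34.4-fold higher in TN3a (adjusted p = 8.69e-07).

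Signalling proteins below the receptor rose too. Rasgrp1, which activates Ras after receptor engagement, read 11.30, 10.73 and 11.04 in TN3a against 5.98 and 5.08 in ETP (difference 5.50 ± 0.31, adjusted p = 1.45e-07). A dimmer Rasgrp1 probe was not called (difference 0.81, adjusted p = 0.233). The kinase Zap70 rose by 3.10 ± 0.23, with 9.40, 9.68 and 9.49 in TN3a against 6.44 and 6.41 in ETP. Themis, a T-lineage adaptor, was at least 14.1-fold higher and undetected in ETP, and Cd247, Lat, Trat1, Prkcq and Grap2 differed by 3.46, 2.85, 3.72, 1.71 and 1.29. Fyn, Lcp2, Ptprc, Vav1, Cd27 and Ubash3a were not called, and Lck has no named probe in the annotation used here. Cd6, a surface receptor of later T cells, was the only member called lower (difference -1.45 ± 0.34, adjusted p = 0.0134), with its other 3 tested probes not called. That call was lost without ETP replicate 1 (0.0806) or ETP replicate 2 (0.113).

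The promoters of 4 of these T-lineage genes are shown because their arrays were far apart between the stages and their start regions hold E-boxes, the 6-base sites bound by E proteins such as HEB. They are RefSeq sequences of build GRCm38.p6, 250 bases before to 50 after the start, read 5′ to 3′ along the gene, with CAGCTG and CACCTG on either strand in capitals. Ptcra (chr17:46763663-46763962), Cd3g (chr9:44980382-44980681) and Rag1 (chr2:101649483-101649782) are on the minus strand and Cd3d (chr9:44981536-44981835) is on the plus strand. The Cd3g and Cd3d windows face away from each other on chromosome 9. Mpo (chr11:87793534-87793833, plus strand), a myeloid granule gene with the largest fall, is shown beside them with GAGGAAG, letters bound by PU.1, in capitals.
Ptcra promoter: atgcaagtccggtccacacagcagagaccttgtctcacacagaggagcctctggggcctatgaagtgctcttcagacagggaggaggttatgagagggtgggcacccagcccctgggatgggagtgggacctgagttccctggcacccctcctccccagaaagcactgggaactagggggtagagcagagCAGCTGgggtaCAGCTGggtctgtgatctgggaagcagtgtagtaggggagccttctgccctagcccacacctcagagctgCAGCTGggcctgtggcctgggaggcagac
Cd3g promoter: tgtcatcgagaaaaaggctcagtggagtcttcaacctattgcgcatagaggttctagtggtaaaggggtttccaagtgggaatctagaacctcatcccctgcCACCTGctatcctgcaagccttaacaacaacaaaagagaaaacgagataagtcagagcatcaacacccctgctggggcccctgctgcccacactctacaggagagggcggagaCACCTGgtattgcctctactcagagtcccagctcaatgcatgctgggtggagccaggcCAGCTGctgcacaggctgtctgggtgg
Cd3d promoter: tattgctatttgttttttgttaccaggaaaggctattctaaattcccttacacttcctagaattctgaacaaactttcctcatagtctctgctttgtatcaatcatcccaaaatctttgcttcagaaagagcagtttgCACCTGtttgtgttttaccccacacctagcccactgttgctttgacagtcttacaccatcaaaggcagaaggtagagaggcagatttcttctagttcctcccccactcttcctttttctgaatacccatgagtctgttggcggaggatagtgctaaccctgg
Rag1 promoter: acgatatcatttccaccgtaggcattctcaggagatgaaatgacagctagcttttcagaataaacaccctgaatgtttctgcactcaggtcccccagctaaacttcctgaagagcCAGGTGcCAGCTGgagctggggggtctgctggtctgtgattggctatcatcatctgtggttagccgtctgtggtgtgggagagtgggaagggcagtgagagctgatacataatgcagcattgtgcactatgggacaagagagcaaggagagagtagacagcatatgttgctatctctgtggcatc
Mpo promoter: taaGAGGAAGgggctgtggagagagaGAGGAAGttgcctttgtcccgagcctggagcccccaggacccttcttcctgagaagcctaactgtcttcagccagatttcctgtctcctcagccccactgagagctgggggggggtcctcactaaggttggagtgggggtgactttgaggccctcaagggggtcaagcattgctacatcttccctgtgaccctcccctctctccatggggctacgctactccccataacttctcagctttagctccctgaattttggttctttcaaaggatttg

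The Ptcra and Cd3g windows each held 3 E-boxes, Rag1 held 2 adjacent ones, Cd3d held 1 and Mpo held 0 of them but 2 GAGGAAG matches. For the 12 genes with the largest rise, 10 matched the RefSeq table with 11 promoters in all, and for the 12 with the largest fall 7 matched with 12 promoters. CACCTG was found in 54.5% of the promoters of the rises, in 0% of those of the falls and in 20.2% of all 32851 promoters, on either strand. For CAGCTG the shares were 18.2% of rises, 16.7% of falls and 16.3% of all promoters. GAGGAAG was found in 0% of rises, 25% of falls and 13.6% of all. The RBPJ letters TGGGAA were found in 36.4%, 50% and 25.6%. The RUNX letters TGTGGT were found in 18.2%, 25% and 16.8%. The TCF/LEF letters CTTTGA were found in 18.2%, 16.7% and 16%. The letters AGATAA, read by GATA factors, were found in 27.3%, 16.7% and 11.2%. For each motif these shares are in the order rises, falls, all. Each motif was searched by itself, so that matches of different motifs may share bases. These counts describe letters in a window and were not tested, and the promoters of a gene with several starts are not independent.

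Receptor gene rearrangement showed a narrow change. Of 10 tested members 2 were called higher, 1 lower and 7 were not called. Rag1, a subunit of the recombinase, read 11.42, 11.57 and 11.05 in TN3a against 5.75 and 5.40 in ETP (difference 5.77 ± 0.35, adjusted p = 2.54e-07). Rag2, its partner, was dimmer, at 6.32, 6.31 and 6.92 in TN3a against 5.25 and 4.25 in ETP, where 1 of the 2 arrays detected it (difference 1.76 ± 0.37, adjusted p = 0.00764). The Rag2 call was lost without ETP replicate 2 (adjusted p = 0.144). Dntt, the terminal transferase that adds bases at receptor gene joints, was already bright in ETP: it read 12.24, 11.39 and 11.36 in TN3a against 10.98 and 10.35 in ETP and was not called (difference 1.00 ± 0.44, adjusted p = 0.207). With slide as a fixed block its difference was 1.16 with an adjusted p of 0.00252. The DNA repair genes Prkdc, Lig4, Nhej1 and Xrcc6 were not called, and Poll, a repair polymerase, fell by 2.62 ± 0.43 (adjusted p = 0.00114).

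Among the 12 genes with the largest rise, 4 belonged to none of the lists. H19, an imprinted long noncoding RNA, read 12.64, 13.06 and 13.42 in TN3a against 4.34 and 5.22 in ETP (difference 8.26 ± 0.38, adjusted p = 2.94e-08). Slc16a5, of the monocarboxylate transporter family, was undetected in ETP and at least 78.9-fold higher in TN3a. Aqp11, an aquaporin, differed by 6.01 ± 0.30, and Fam169b by 6.85 ± 0.29. All 4 had TN3a arrays that lay above 10.4 and ETP arrays below 6.5.

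Receptors for cytokines and growth factors changed in both directions, with 4 of 17 tested called higher and 5 lower (median difference 0.05). Il7r, the interleukin-7 receptor chain on which early thymocytes depend, read 10.25, 9.96 and 10.06 in TN3a against 8.01 and 7.55 in ETP (difference 2.31 ± 0.28, adjusted p = 0.000101). Its dimmer probes were not called (differences 1.12 and 1.06, adjusted p = 0.198 and 0.185). Il17rb, the receptor for interleukin-25, rose by 2.64 ± 0.49, Ifngr1 by 2.27 and Tgfbr1 by 1.32. Csf1r, the macrophage growth factor receptor, had the largest fall of the list: it read 4.31, 4.62 and 4.58 in TN3a against 8.54 and 8.08 in ETP (difference -3.81 ± 0.21, adjusted p = 1.31e-07). Kit, Csf3r, Il6ra and Tgfbr2 were the other falls. Without ETP replicate 1 the list held 2 lower calls, as it did without ETP replicate 2. Flt3, a progenitor cytokine receptor, was detected on 1 ETP array only and was not tested.

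Of 16 tested genes of homing and adhesion, 3 rose and 5 fell (median difference 0.04). Thy1, a surface glycoprotein of T cells, stood at 13.83, 13.70 and 14.02 in TN3a against 9.04 and 9.03 in ETP (difference 4.82 ± 0.21, adjusted p = 2.22e-08). A dimmer Thy1 probe was not called (difference 0.41, adjusted p = 0.481). Ly6d rose by 4.93 ± 0.27, with 13.16, 13.07 and 12.61 in TN3a against 8.36 and 7.67 in ETP, and Itgae, an integrin chain that binds E-cadherin, by 3.60. Cd34, a sialomucin of progenitors, read 5.55, 4.50 and 4.44 in TN3a against 9.54 and 10.00 in ETP (difference -4.94 ± 0.36, adjusted p = 1.2e-06), and Itgb7, an integrin chain of gut homing, fell by 4.85. Cd44, Cd9 and Ccr7 were also called lower. Without ETP replicate 1 the list held 3 lower calls.

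Cell cycle genes were called about as often as all genes tested. Of 35 tested, 2 rose, 2 fell and 31 were not called, with a median difference of 0.03. The shares were 5.71% higher and 5.71% lower, beside 4.87% and 7.79% of all genes tested. Mki67, a marker of dividing cells, read 9.53, 9.93 and 10.49 in TN3a against 9.70 and 10.14 in ETP, and its groups overlapped (difference 0.06 ± 0.28, adjusted p = 0.939). Top2a, Cdk1, Mcm2, Plk1 and Aurkb were likewise not called, nor were Ccnd2 and Ccnd3 on their brightest probes (adjusted p = 0.856 and 0.139). Of the other 3 Ccnd2 probes 1 was called higher (difference 1.29, adjusted p = 0.0481), at 7.96, 7.69 and 8.46 in TN3a against 5.95 and 7.53 in ETP, and 2 were not called. Ccnd1, described above, was called lower. Cdkn1a, which encodes the cell cycle inhibitor p21, read 10.31, 9.33 and 9.72 in TN3a against 5.28 and 4.35 in ETP, a difference of 4.97 ± 0.39 (adjusted p = 2.2e-06). Cdkn2c, the inhibitor p18, rose by 1.45 ± 0.34 and Cdt1, a replication licensing factor, fell by 0.88 ± 0.19. The Cdkn2c call (adjusted p = 0.0131) and the Cdt1 call (0.00871) were each lost without either ETP array, at adjusted p of 0.0621 and 0.134 for Cdkn2c and of 0.0822 and 0.0637 for Cdt1.

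Of 11 tested survival and death genes, Bcl2 and Fas were called higher and 9 were not called, Mcl1, Bcl2l1 and Bcl2l11 among them. Bcl2, which protects from apoptosis, read 8.16, 7.58 and 7.29 in TN3a against 6.22 and 6.07 in ETP (difference 1.53 ± 0.41, adjusted p = 0.0322). On that probe the call was lost without ETP replicate 1 (0.139), ETP replicate 2 (0.194), TN3a replicate 1 (0.0858) or TN3a replicate 2 (0.063). A second Bcl2 probe, brighter on these 5 arrays, read 8.68, 8.45 and 8.15 in TN3a against 6.84 and 6.28 in ETP and was called too (difference 1.87 ± 0.26, adjusted p = 0.000328). Fas, a death receptor, rose by 1.39 ± 0.27 (adjusted p = 0.00377, and 0.052 without ETP replicate 2). Of 12 tested genes known to be altered in T-ALL, oncogenes and tumour suppressors both, 4 were lower in TN3a, namely Lmo2, Lyl1, Tal1 and Mef2c, 0 were higher and 8 were not called, Notch1, Myc, Myb and Ezh2 among them. With slide as a fixed block, 3 of the 12 were called higher.

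**Figure D3:**
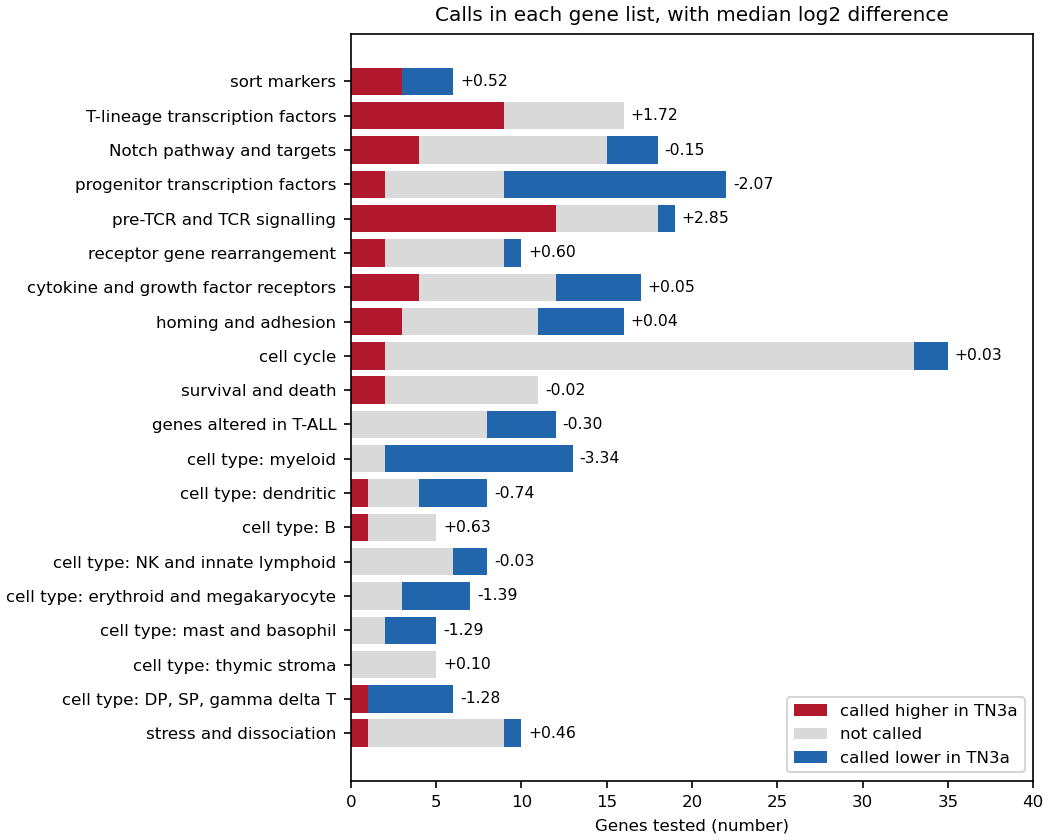
Number of tested genes of each list that were called higher in TN3a (red), not called (grey) or called lower (blue), with the list's median log2 difference, TN3a minus ETP, at the end of each bar. The pre-TCR and TCR signalling list and the T-lineage factors are mostly red, the progenitor factors and myeloid markers mostly blue, and the cell cycle list mostly grey.

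Myeloid markers were the cell type list with the most genes lower in TN3a. In a bulk sample, fewer cells of a type and less RNA per cell cannot be told apart. Of 13 myeloid genes tested, 11 were lower in TN3a, 0 were higher and 2 (Cd68 and Ly6c1) were not called, with a median difference of -3.34. The share called lower was 84.6%, beside 7.79% of all genes tested. Members undetected in TN3a entered the test only because both ETP arrays detected them, so the filter favoured falls among them. Their summed intensity on the linear scale was 855, 936 and 729 on the TN3a arrays against 29090 and 25770 on the ETP arrays. Mpo, the myeloperoxidase of granulocyte precursors, gave the largest fall of all tested probes. It read 4.36, 4.27 and 4.14 in TN3a, undetected, against 14.30 and 13.83 in ETP, and was at least 826-fold lower in TN3a (adjusted p = 5.52e-11). The other granule proteases were undetected in TN3a as well, with Ctsg at least 38.8-fold lower, Prtn3 at least 15.2-fold and Elane at least 9.80-fold. Tyrobp, a signalling adaptor of myeloid and natural killer cells, was at least 56.8-fold lower. Markers shared with mature myeloid cells were also lower in TN3a: Lyz2, lysozyme, averaged 7.62 in TN3a and 9.23 in ETP, Fcer1g 6.11 in TN3a and 9.34 in ETP, and Fcgr3, an Fc receptor, 4.21 in TN3a and 6.30 in ETP. Of the 7 members that were not tested, Itgam, Cd14, Adgre1 and Ccr2 were detected on none of the 5 arrays, and S100a8, S100a9 and Clec12a on 1 ETP array at most. Without ETP replicate 1, and likewise without ETP replicate 2, the list held 4 lower calls, since genes detected on the ETP arrays alone were then not tested. The part of these cells in the differences between TN3a and ETP was not tested.

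On the ETP arrays the erythroid and mast cell lists, which hold fewer tested genes, summed to less than the myeloid list. The erythroid and megakaryocyte list had 4 of 7 tested genes lower in TN3a and summed to 39.2, 58.0 and 47.8 on the TN3a arrays against 2043 and 1472 on the ETP arrays. Hbb-b1, a beta globin gene, read 4.64, 4.55 and 4.84 in TN3a against 10.58 and 9.89 in ETP on its brightest probe. Probes of near-identical globin genes can share transcripts, so the gene is uncertain. Alas2 and Pf4 were detected on none of the 5 arrays. Of 5 tested mast cell and basophil genes, Gata2, Hdc and Cma1 were lower (1 lower call without ETP replicate 1 or ETP replicate 2), and Cpa3, the brightest, was not called, at 10.85, 10.05 and 9.15 in TN3a against 11.47 and 11.14 in ETP (difference -1.29 ± 0.38, adjusted p = 0.0503). The Cpa3 result sits at the threshold: a second probe was called lower (difference -1.52, adjusted p = 0.0277) and another was not (0.42). The first probe was called with slide as a random block (0.0265) and without TN3a replicate 1 (0.0033). The summed level of that list was 1855, 1090 and 572 in TN3a against 3007 and 2532 in ETP. Their part in the comparison was not tested.

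Dendritic, B, natural killer and stromal markers were mixed. Of 8 tested dendritic genes 4 were lower in TN3a, among them Cd74 and H2-Ab1 of antigen presentation, and Xcr1 was higher at a level near the floor (4.88 ± 0.14 in TN3a, 4.18 ± 0.10 in ETP, SD, n = 3 and 2). Without ETP replicate 1 the dendritic list held 0 lower calls, and without ETP replicate 2 it held 1. Its linear intensities summed to 2111, 3161 and 2220 in TN3a against 2774 and 2867 in ETP. Of 5 tested B cell genes Vpreb1, the surrogate light chain, rose by 1.18 ± 0.29 (adjusted p = 0.0177) and 4 were not called, while Pax5, Blnk and Vpreb3 were detected on none of the 5 arrays. Cd79b, a chain of the B cell receptor and the brightest of the 4, differed by 0.63 (adjusted p = 0.256) and was called higher with slide as a fixed block (0.76, adjusted p = 0.0334) or as a random block (0.73, adjusted p = 0.0411). The Vpreb1 call was lost without ETP replicate 1 (0.168), ETP replicate 2 (0.065) or TN3a replicate 2 (0.0623). The B list summed to 2085, 1719 and 1420 in TN3a against 1119 and 1220 in ETP. Of 8 tested natural killer and innate lymphoid genes, Klrd1, undetected in TN3a and at least 11.5-fold lower there, and Nkg7 were lower and 6 were not called. Nkg7 lost its call without ETP replicate 1 (0.0902), ETP replicate 2 (0.212) or TN3a replicate 3 (0.0917). Their list summed to 3848, 4356 and 3392 in TN3a against 5788 and 8308 in ETP, and Ncr1, Gzmb, Eomes, Tbx21 and Klrk1 were detected on no array. The 5 tested stromal genes were not called, and Foxn1, Krt5, Epcam, Col1a1, Col3a1 and Pdgfra were undetected throughout.

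Markers of later and of gamma delta T cells gave 1 rise and 5 falls among 6 tested, by the brightest probe of each gene. The rise was Tcrg-V4, a variable segment of the T cell receptor gamma locus, at 13.11, 12.70 and 13.20 in TN3a against 9.26 and 7.63 in ETP (difference 4.56 ± 0.42, adjusted p = 9.38e-06). The falls were Klf2, Ccr7, Cd6, Cd8b1 and Foxp3, although for Cd8b1, whose probes disagree, no direction is given for the gene. Without ETP replicate 1 or ETP replicate 2 the list held 1 lower call, and without TN3a replicate 3 it held 3. The Cd6, Foxp3 and Cd8b1 calls rest on 1 probe each, since their other probes were not called. For Cd6 those differed by -1.31, -1.36 and -0.07 (adjusted p = 0.0519, 0.0572 and 0.94). Foxp3's brightest probe read 9.37, 9.37 and 9.16 in TN3a against 10.62 and 10.45 in ETP, while its dimmer probe differed by 0.50 with an adjusted p of 0.489. Klf2 and Ccr7 lost their calls without either ETP array (adjusted p = 0.112 and 0.168 for Klf2, 0.114 and 0.16 for Ccr7). The list summed to 11730, 9894 and 12760 in TN3a against 8384 and 8399 in ETP. Of 10 tested genes of stress and cell dissociation, Egr1 was higher, Zfp36 was lower and 8 were not called, Jun, Junb and Hspa1a among them. Zfp36 differed by -1.94 ± 0.43 (adjusted p = 0.00967), and by -1.62 without ETP replicate 2, where it was not called. The list's 10% higher and 10% lower stand beside 4.87% and 7.79% of all genes tested.

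The remaining large falls included several genes seldom named as thymocyte markers. Ifitm1, an interferon-induced membrane protein, was called lower on all 3 of its tested probes, which differed in size. Its brightest probe was detected on all arrays, at 9.32, 8.71 and 8.27 in TN3a against 13.05 and 12.69 in ETP (difference -4.11, adjusted p = 0.000105). Its most changed probe was undetected in TN3a, at 4.15, 4.17 and 4.50 there against 12.97 and 12.64 in ETP, and was at least 333-fold lower. Ffar2, a receptor for short-chain fatty acids, was at least 138-fold lower, Epb41l3, a membrane skeleton protein, at least 88.3-fold and Adgrl4, an adhesion receptor, at least 53.6-fold. Serpinf1, a secreted serpin, fell by 6.56 ± 0.34 and Napsa, an aspartic protease, by 6.24 ± 0.29. A dimmer Serpinf1 probe was not called (difference -0.14, adjusted p = 0.861). Tspan32, a tetraspanin, fell by 6.65 ± 0.64. Igk-C, the immunoglobulin kappa constant region, was undetected in TN3a and at least 56.4-fold lower, with 4.47, 4.31 and 4.32 in TN3a against 9.58 and 10.87 in ETP.

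The later stages placed the ETP to TN3a step in the course of development. Some genes that rose in TN3a stayed high: Bcl11b averaged 5.18 ± 0.01 in ETP, 12.81 ± 0.27 in TN3a, 11.55 ± 0.04 in TN3b, 11.78 ± 0.22 in TN4, 12.02 ± 0.45 in ISP and 13.52 ± 0.16 in DP (SD, n = 2, 3, 2, 3, 2 and 2 arrays). Others had their highest mean in TN3a. H19 averaged 4.78 in ETP, 13.04 in TN3a, 8.86 in TN3b, 7.99 in TN4, 5.41 in ISP and 4.24 in DP, and Il2ra, Notch3, Ptcra, Dtx1 and Cdkn1a also had lower means at each later stage. Rag1 was lower at TN3b (9.07 ± 0.00) than at TN3a (11.34 ± 0.27) and reached 12.97 ± 0.92 in DP. Mpo and Lmo2 did not exceed a mean of 4.8 at TN3a or any later stage, whereas Kit averaged 12.14, 9.48, 7.97, 7.66, 6.16 and 5.53 over the 6 stages in that order. Differences between later stages are given as levels and were not tested here.

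**Figure D4:**
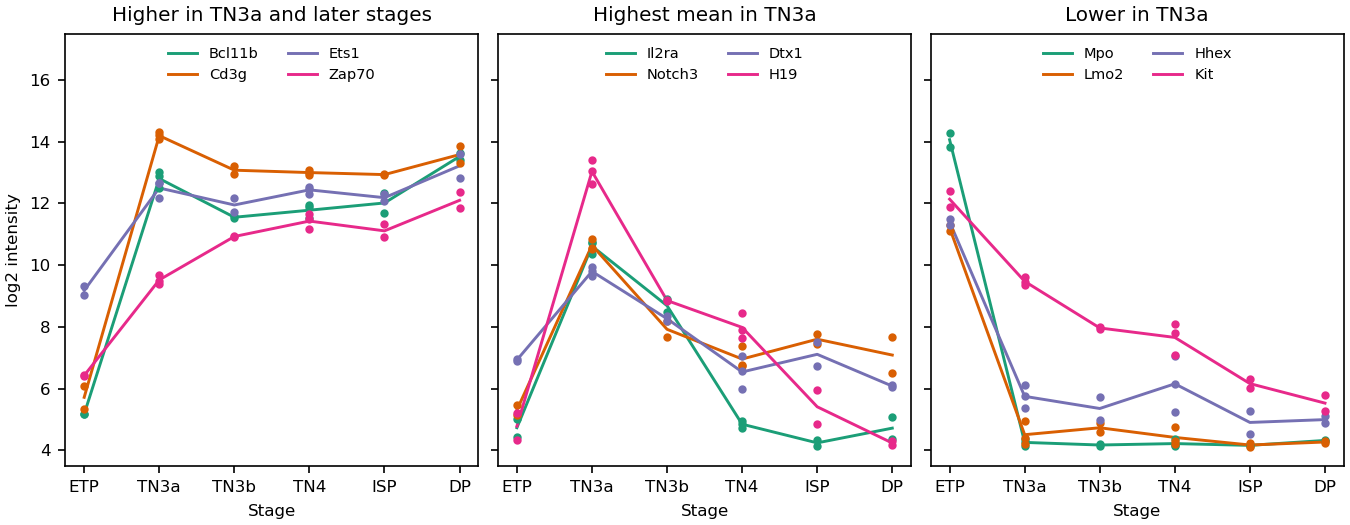
Log2 intensity of 12 genes at 6 stages from ETP to DP, with a point for each array and a line through the stage means, grouped by the shape of their course as seen in these values. Bcl11b and Cd3g stay above 11.5 from TN3a on, H19 and Il2ra have their highest mean in TN3a, and Mpo and Lmo2 lie below 5 from TN3a on.

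Slides did not separate the stages. Slide here means arrays that share a number in their titles, which no label names as a slide. Slides were numbered in order of appearance. Slide 4 held TN3a replicate 1 and ETP replicate 1, slide 6 held TN3a replicate 2 and ETP replicate 2, and slide 7 held TN3a replicate 3. All 895 probes called higher and all 1286 called lower had the same sign within slide 4 and within slide 6, 1 array of each stage on each. The same arrays gave the calls, so this is no separate support for them. For the 1871 probes without overlap between arrays the shared sign follows from that choice. A fixed slide block raised the number of called probes to 3356, which included 2179 of the 2181, and a random slide block gave 3373. Xist, which is expressed in female cells, read 8.18, 4.14 and 4.09 in TN3a against 7.10 and 4.14 in ETP on probe ILMN_1224091, high on the slide 4 arrays of both stages. The Y-linked gene Eif2s3y read 7.48, 9.37 and 8.65 in TN3a against 4.18 and 8.85 in ETP on probe ILMN_1241001, so that TN3a replicate 1 carried both signals. ETP replicate 1 carried the Xist signal only and ETP replicate 2 the Eif2s3y signal only. The labels give no sex. No tested probe of Xist, Eif2s3y, Kdm5d or Uty was called.

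**Figure D5:**
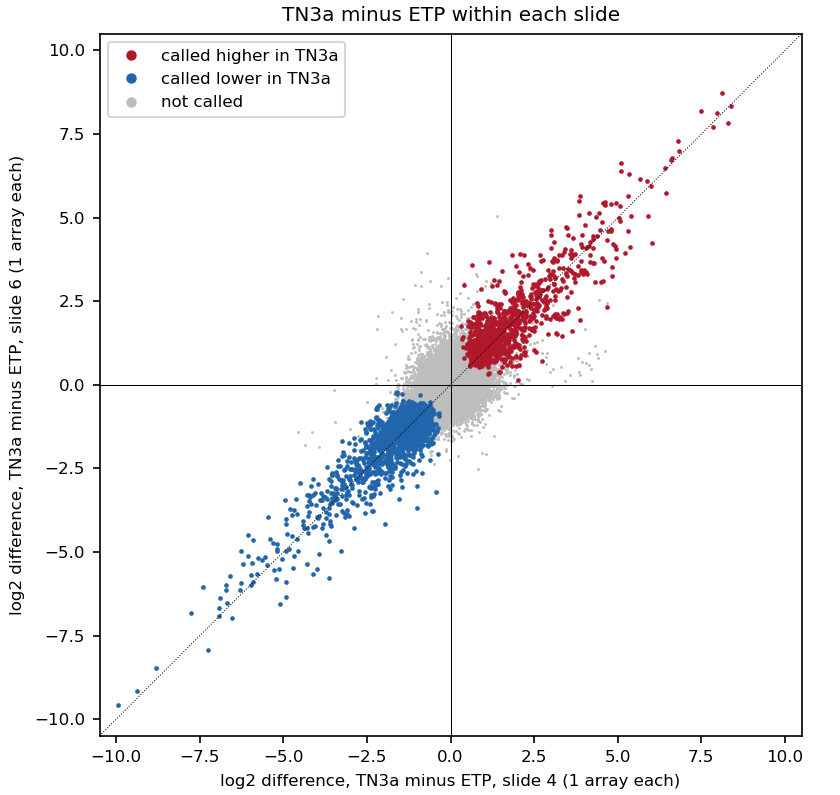
Log2 difference, TN3a minus ETP, of each tested probe within slide 4 (horizontal axis) and within slide 6 (vertical axis), from 1 array of each stage on each slide. All probes called higher (red) lie above 0 on both axes and all called lower (blue) below 0 on both, and the dotted line marks equal differences. The arrays shown are among those that gave the calls.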

How the data were processed

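The authors deposited probe intensity on a linear scale for 16 thymocyte arrays, each with a detection p-value beside it, per the file headers. Scanner settings are not stated. A second deposited table, on a joint scale with the leukaemias, was not used here. RNA was amplified and biotin-labelled per the labels' protocols. Each array's stage was taken from its own labels and its probes were matched by ID. Background was corrected by normexp from the detection p-values (offset 16), followed by log2 and quantile normalisation over 14 arrays, in R 4.3.3 with limma 3.58.1. Probes with a detection p under 0.01 on at least 2 of the 5 TN3a and ETP arrays were tested with lmFit and eBayes (2-sided, Benjamini-Hochberg over all 20088 probes, 8 residual degrees of freedom). Where no array of a stage detected a probe, the fold is a bound: the brighter stage's mean against, per array of the other stage, the higher of the probe's value and the lowest detected level. The number of arrays limits the precision.

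The platform annotation gave 35667 probes 1 symbol each, 0 several, and left 10570 unnamed. Symbols were updated through RefSeq (GRCm38.p6), 28519 by gene ID and 2634 by accession, and 4514 were kept. The members and gene lists were chosen with earlier results of these data known. Named genes were a set of commitment genes, the 12 largest rises and 12 largest falls, up to 2 of each per list, and called or brightest cell type markers. Other genes of the lists are named with their calls, chosen after their values were seen. The fit was tested on simulated data. Alternatives were other arrays in the fit, background, scaling, filter, slide blocks (statmod 1.5.0), spread model, threshold, single arrays left out, and the mean of a gene's probes.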

Additional observations from a re-analysis of the deposited data

How the results depend on the processing

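The count of 2181 called probes became 1295 with median scaling, 3356 with slide as a fixed block, 3373 with slide as a random block, 659 with treat against a 2-fold change, and 1128 to 2299 when single arrays were left out. The 1872 probes called at least 2-fold became 987 without background correction, 659 with treat and 1122 to 1997 with single arrays left out. The 1871 probes without overlap between arrays became 987, 659 and 1122 to 1997 under the same settings. The cause was not tested for the scaling, background and slide settings. With an ETP array left out, fewer probes were tested and 1 ETP array remained. The other settings left these counts within 1.5 times. Of the 90 named probes that were called, 62 kept their call and 89 their direction under every alternative in which they were tested. Without ETP replicate 1, and likewise without ETP replicate 2, 84 of the 103 named probes were tested. The exception in direction was Cd8b1, whose difference was 0.11 (adjusted p = 0.844) as the mean of its probes. The labels give no replicate numbers, so replicate number was not used as a block. Slides 4 and 6 each hold an array of both stages, and the slide blocks above are the paired analysis. Probes near the floor allow only bounds on a fold.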

Other observations

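Gene families outside the lists were grouped by symbol after their values were seen, and are given as values by probe. Over all 20088 tested probes, 4.46% were called higher in TN3a and 6.4% lower. Of 12 tested probes of T cell receptor loci, 8 were higher in TN3a and 0 lower, with a median difference of 1.95. A Tcrg probe averaged 9.34 in TN3a and 4.36 in ETP, where it was undetected, and Tcrb-V8.3 averaged 8.01 in TN3a and 4.35 in ETP. The Tcrb-V8.2 probes disagreed: ILMN_2516221 was higher by 3.71, whereas ILMN_2431390 was bright at both stages, at 14.09 in TN3a and 13.95 in ETP, and not called. The 3 tested alpha chain variable segments, Trav9n-4, Trav3-3 and Trav11d, were not called. Probes of segments of one locus may bind each other's transcripts, so single segments are uncertain.

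Genes of MHC class II antigen presentation were lower in TN3a on 12 of 16 tested probes and higher on 0, with a median difference of -1.23. H2-Ob averaged 4.88 ± 0.20 in TN3a and 9.64 ± 0.00 in ETP (SD, n = 3 and 2, difference -4.77, adjusted p = 1.45e-07). H2-DMa stayed bright, at 10.27 in TN3a and 11.53 in ETP on probe ILMN_2866856. The 5 tested Ifitm probes were all lower in TN3a, and 2 of the 3 Ifitm1 probes were undetected there while the third averaged 8.76 in TN3a and 12.87 in ETP. Of 9 tested immunoglobulin probes 4 were lower, with Igh-6 at 10.21 in TN3a and 11.19 in ETP on probe ILMN_2744660. Of 13 tested Hox probes 1, of Hoxa9, was lower and 12 were not called, with Hoxa7 the brightest at 8.89 in TN3a and 9.87 in ETP. That Hox count is near the 6.4% of all tested probes called lower.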
